A study of Mus musculus with 6 samples.

Results

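The glucocorticoid receptor gene and 5 genes that the receptor is known to induce were followed in the RNA of CD8+ T cells from mouse spleens. The members were chosen by symbol, as Nr3c1, Tsc22d3, Fkbp5, Sgk1, Ddit4 and Klf9, so that 6 of the 28773 gene IDs in each file were described, and all 6 were found and passed the filter on low values. The study asked what blocking glycolysis adds to microwave ablation (MWA), the heating of a tumor with a microwave probe until its tissue dies. All 6 samples came from ablated mice, of which 3 formed the MWA+PBS group that received only the saline vehicle and 3 formed the MWA+2DG group that received 2-deoxy-D-glucose (2DG), a glucose analogue that blocks glycolysis. The cells were taken on day 35, after 2DG dosing had ended, and were isolated with a commercial CD8+ T cell kit. The labels of these samples give neither strain, tumor line nor age, and there was no group without ablation or without a tumor. Whether each sample came from 1 mouse is not stated, so the p-values below measure the spread between the samples of a group.

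The glucocorticoid receptor, encoded by Nr3c1, is a nuclear receptor for corticosterone in mice and cortisol in humans. Without hormone it waits in the cytoplasm, held by HSP90 and its partner proteins. With hormone it enters the nucleus and binds short palindromic DNA elements. In lymphocytes it restrains activation and cytokine production, and in thymocytes and resting T cells high doses of hormone lead to death. Tsc22d3 encodes GILZ, a leucine zipper protein that carries much of the anti-inflammatory action of the hormone. Fkbp5 encodes FKBP51, a cochaperone that lowers the receptor's affinity for hormone and so closes a feedback loop. Sgk1 encodes a serum- and glucocorticoid-regulated kinase, Ddit4 encodes REDD1, a stress-induced inhibitor of mTORC1, and Klf9 encodes a zinc finger repressor. All 5 targets also answer other signals, such as insulin, osmotic stress or low oxygen.

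The DNA before the annotated start sites is shown for 4 of the targets, because Tsc22d3, Fkbp5 and Klf9 moved together in the RNA, whereas Sgk1 moved the other way on the deposited FPKM, a direction that reversed after scaling to CD8 T cell genes. The sequences are from RefSeq on the GRCm38.p6 build and run 5′ to 3′ on the strand of the gene, over the 250 bases before a start. Capitals mark TGTTCT, a single arm of the receptor's palindromic element, read on both strands. For Sgk1 and Tsc22d3, which have several windows, the printed window is the one with the most matches. No link between these sequences and the RNA was tested.
Sgk1 (window 5 of 6, chr10:21993640-21993889, plus strand): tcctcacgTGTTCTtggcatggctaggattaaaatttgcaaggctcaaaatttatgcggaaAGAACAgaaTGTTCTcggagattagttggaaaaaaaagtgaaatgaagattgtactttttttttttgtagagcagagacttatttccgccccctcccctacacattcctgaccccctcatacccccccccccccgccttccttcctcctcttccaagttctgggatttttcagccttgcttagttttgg
Tsc22d3 (window 3 of 3, chrX:140600523-140600772, minus strand): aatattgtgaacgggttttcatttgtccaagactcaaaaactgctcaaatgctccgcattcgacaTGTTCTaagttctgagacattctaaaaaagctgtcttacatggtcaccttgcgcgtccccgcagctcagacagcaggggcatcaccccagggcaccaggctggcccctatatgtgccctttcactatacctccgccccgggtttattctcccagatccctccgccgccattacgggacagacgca
Fkbp5 (its 1 window, chr17:28486150-28486399, minus strand): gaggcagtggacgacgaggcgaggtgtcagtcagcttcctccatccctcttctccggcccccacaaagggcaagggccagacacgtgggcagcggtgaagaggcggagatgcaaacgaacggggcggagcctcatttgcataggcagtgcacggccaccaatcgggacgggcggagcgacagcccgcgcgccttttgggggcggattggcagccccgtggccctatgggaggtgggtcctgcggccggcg
Klf9 (its 1 window, chr19:23140976-23141225, plus strand): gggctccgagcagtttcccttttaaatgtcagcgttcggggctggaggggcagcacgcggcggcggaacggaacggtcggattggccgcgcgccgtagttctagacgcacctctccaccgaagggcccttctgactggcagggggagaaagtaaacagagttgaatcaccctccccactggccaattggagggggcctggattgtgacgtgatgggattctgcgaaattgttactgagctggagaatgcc
Only windows of 300 bases, from 250 before to 50 after each start, were searched, so any element farther away would be missed. These windows, 12 in all, covered 5 of the 6 members, and Nr3c1 was not among them. The single arm was in 4 of 12, of which 3 belonged to Sgk1 and 1 to Tsc22d3, against 6233 of all windows (19.0%). The Sgk1 window printed above held 3 matches, of which 2 lie on opposite strands with 3 bases (gaa) between them, as an inverted repeat. Only the single arm was searched, so the share of windows that hold such a pair is not known. A match is only a description of the letters, and gene-level values do not tell which of the 6 Sgk1 or 3 Tsc22d3 starts was used.

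RNA levels were given as FPKM, which divides the fragments of a gene by its transcript length and by the mapped fragments of the library, and are therefore per length. Differences between groups were tested with limma on log2(FPKM + 1), MWA+2DG minus MWA+PBS, with Benjamini-Hochberg adjustment over the 12444 genes whose mean FPKM was at least 1. All log2 fold changes are on this log2(FPKM + 1) scale, where changes of low genes come out too small, and the ± after a log2 fold change is its standard error. The depth behind the values is unknown, because the files hold no counts.

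Nr3c1 RNA was slightly lower in MWA+2DG. Its FPKM was 20.89, 22.65 and 21.06 in MWA+PBS replicates 1, 2 and 3 and 18.22, 19.58 and 19.13 in MWA+2DG replicates 4, 5 and 6. Every MWA+2DG sample lay below every MWA+PBS sample, by a narrow gap. The means were 21.53 ± 0.971 and 18.98 ± 0.693 (SD, n = 3 each), and the log2 fold change was -0.17 ± 0.06 with a 95% interval of -0.31 to -0.04 (limma adjusted p = 0.0451). This call was lost when any 1 of the 6 samples was left out, with adjusted p between 0.0623 and 0.148. The receptor's level stood at percentile 83.6 of the tested genes in MWA+PBS and at percentile 81.1 in MWA+2DG.

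Fkbp5 and Tsc22d3 RNA fell in MWA+2DG, with narrow replicate spread. Fkbp5 was at 9.32, 9.32 and 9.07 FPKM in MWA+PBS but at 4.75, 4.82 and 4.25 FPKM in MWA+2DG. All 3 MWA+2DG samples were far below the lowest MWA+PBS sample. The Fkbp5 mean in MWA+PBS was 2.01 times that in MWA+2DG (9.237 ± 0.144 and 4.607 ± 0.311 FPKM), with a log2 fold change of -0.87 ± 0.06 and a 95% interval of -1.02 to -0.72 (limma adjusted p = 5.59e-05). Among all tested genes 607 had a lower log2 fold change than this feedback inhibitor. Fkbp5 moved from percentile 61.5 to percentile 38.8 of level among the tested genes.

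Tsc22d3 was the most abundant member in MWA+PBS, at 70.40, 65.33 and 67.49 FPKM, and was at 40.08, 36.76 and 40.12 FPKM in MWA+2DG. The groups did not overlap, and the distance between them was many times the spread within either. Its mean went from 67.74 ± 2.54 to 38.99 ± 1.93 FPKM, a log2 fold change of -0.78 ± 0.06 with a 95% interval of -0.92 to -0.65 (limma adjusted p = 5.47e-05). For GILZ RNA 718 tested genes had a lower log2 fold change. Leaving out single samples kept the log2 fold change of Tsc22d3 between -0.81 and -0.74 and that of Fkbp5 between -0.90 and -0.82, and every such fit kept both calls.

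Klf9, the repressor, was the member with the lowest level. It was at 1.65, 1.77 and 1.38 FPKM in MWA+PBS but at 0.76, 0.74 and 0.82 FPKM in MWA+2DG. All MWA+2DG values were under 1, so that Klf9 passed the filter only through MWA+PBS and was in effect selected for being high there. Its mean was 1.6 ± 0.20 against 0.773 ± 0.0416 FPKM, which left 0.483 of the MWA+PBS level, and its log2 fold change was -0.55 ± 0.10 with a 95% interval of -0.78 to -0.32 (limma adjusted p = 0.00432). Because of the pseudocount of 1 that value is damped, and with a pseudocount of 0.1 it was -0.96.

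Sgk1 RNA was higher in MWA+2DG. The kinase was at 37.11, 38.59 and 34.42 FPKM in MWA+PBS but at 44.22, 41.71 and 45.01 FPKM in MWA+2DG. The groups did not overlap, but the nearest samples, MWA+PBS 2 and MWA+2DG 5, were close. The mean went from 36.71 ± 2.11 to 43.65 ± 1.72 FPKM, 1.19 times the MWA+PBS level, with a log2 fold change of 0.24 ± 0.06 and a 95% interval of 0.10 to 0.39 (limma adjusted p = 0.0159). Without MWA+2DG 4 the adjusted p was 0.0564 and without MWA+2DG 6 it was 0.063, so that either sample decided the call. When the libraries were scaled to a list of CD8 T cell genes the direction of Sgk1 reversed, as described below.

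Ddit4, the mTORC1 inhibitor, did not pass the test. It was at 41.96, 37.09 and 36.82 FPKM in MWA+PBS, and at 40.51, 37.95 and 41.72 FPKM in MWA+2DG. The highest value of all belonged to MWA+PBS 1 and the 2 lowest to MWA+PBS 2 and 3, so the groups overlapped across most of their range. Its means were 38.62 ± 2.89 and 40.06 ± 1.92 FPKM, and the log2 fold change of 0.05 ± 0.07 had a 95% interval of -0.11 to 0.21 (limma adjusted p = 0.575).

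**Figure D1:**
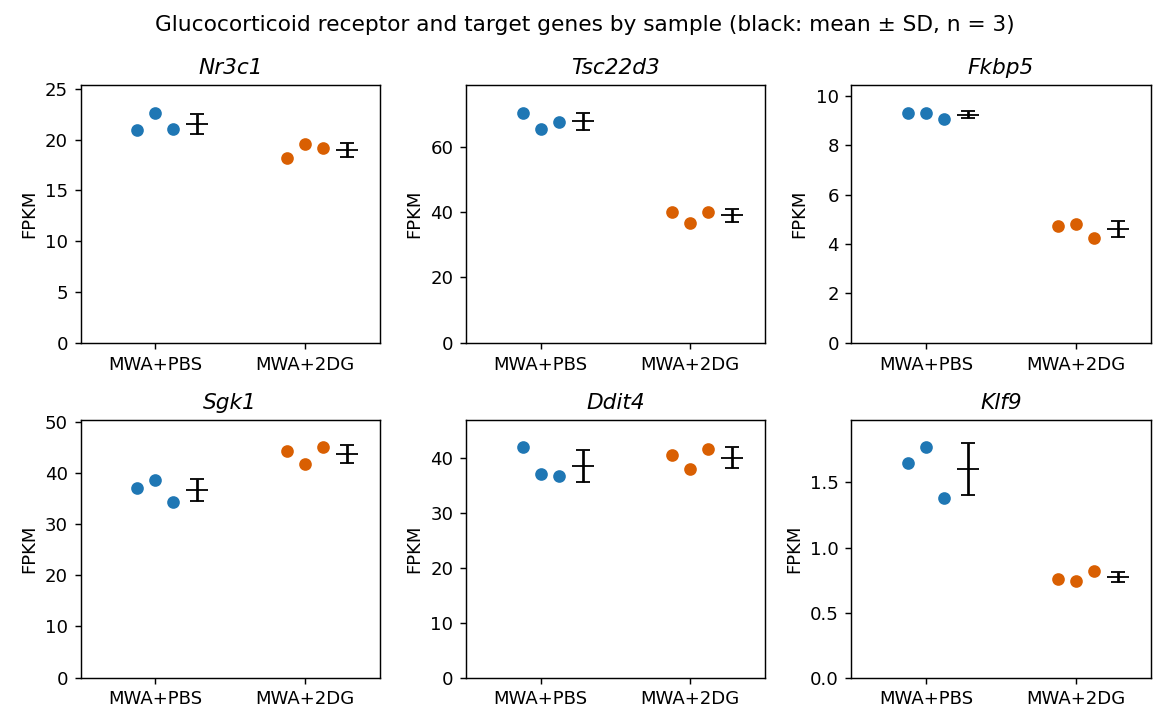
FPKM of each of the 6 members in every sample, with 1 panel per gene and a linear axis from 0; colored points are samples, and the black mark beside them is the group mean with its SD (n = 3). Tsc22d3, Fkbp5 and Klf9 dropped to clearly separate lower levels in MWA+2DG, Nr3c1 and Sgk1 were separated by narrow gaps in opposite directions, and Ddit4 overlapped.

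Of the 6 members, 5 were called at an adjusted p under 0.05, 4 lower (Nr3c1, Tsc22d3, Fkbp5 and Klf9) and 1 higher (Sgk1). That count stands beside 39.4% of all tested genes called, with 22.3% higher and 17.1% lower, so that a call by itself was common in this comparison. The groups did not overlap for 5 of the 6 members, 4 of them lower and 1 higher, against 52.1% of all tested genes (30.2% higher and 21.9% lower). The study's own rule asks for P under 0.05 and a log fold change beyond 0.25, without giving the base or any adjustment. Read here as unadjusted P and log2, it called 3 members, all lower (Tsc22d3, Fkbp5 and Klf9), beside 38.2% of all tested genes. Klf9 is set apart in these counts, because it entered the test only through the group where it was high. Without it 4 of 5 members were called, 3 of them lower, the groups did not overlap for the same 4, and 2 were called by the study's rule. Sgk1 lay just inside the bound of 0.25 and was not counted, and Nr3c1 was smaller still. The rule called 4 members, with Sgk1 higher, under a pseudocount of 0.1 and under sample weights from limma's arrayWeights. It did so too without MWA+PBS 1, MWA+PBS 2 or MWA+2DG 5. In these settings 36.4% to 41.7% of all tested genes were called. On the log2(FPKM + 1) scale of the deposited values no member passed a log2 fold change beyond 1, though the ratio of mean FPKM was 2.01 for Fkbp5 and 2.07 for Klf9 and the scaling described below takes Fkbp5 and Tsc22d3 past it. This limit was passed by 5.04% of tested genes (1.18% higher and 3.86% lower). The median log2 fold change of the 6 members was -0.36, and that of all tested genes was 0.05. Without Klf9 the middle value of the 5 members was that of Nr3c1, -0.17.

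**Figure D2:**
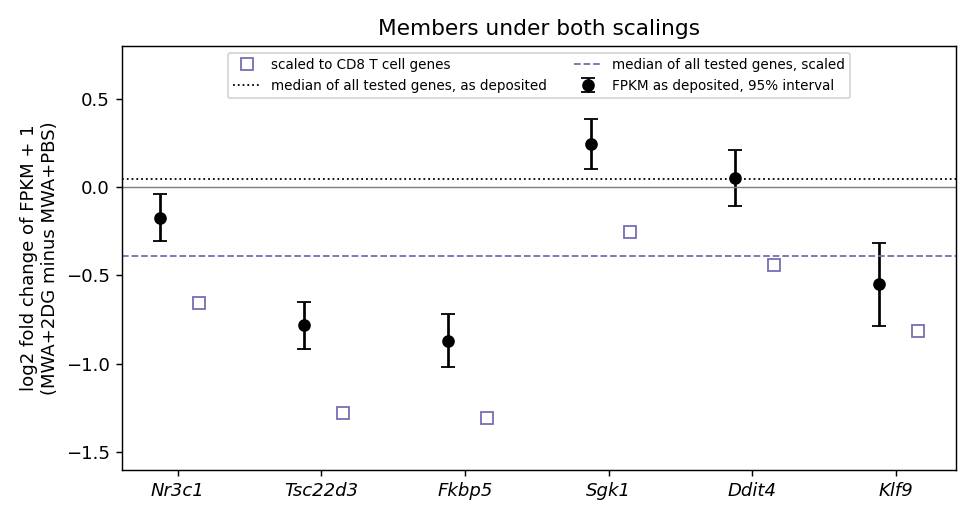
Log2 fold change of each member (MWA+2DG minus MWA+PBS, on the log2(FPKM + 1) scale) on the FPKM as deposited (black points, with the 95% interval from limma) and after scaling to the CD8 T cell list (open squares, no interval drawn); the dotted and dashed lines are the medians of all tested genes, 0.05 and -0.39. Fkbp5, Tsc22d3 and Klf9 were below 0 in both, while Sgk1 and Ddit4 went from 0.24 and 0.05 to -0.25 and -0.44 after the scaling.

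FPKM is a share of each library, and the libraries differed in more than T cell RNA, so the members were also set against T cell genes. In the list of 11 CD8 T cell genes, all 11 rose, by a median of 0.55 on the log2 scale, and their summed level was 1523 to 1599 FPKM in MWA+PBS against 2168 to 2315 FPKM in MWA+2DG. Scaling every library to that list moved the median log2 fold change of all tested genes by -0.43, to -0.39, and cut the share of calls that were higher from 56.5% to 5.38%. After it, 6 of 6 members were called lower, beside 71.9% of all tested genes called in either direction, nearly all of them lower. Sgk1 then stood at -0.25 (limma adjusted p = 0.00253) and Ddit4 at -0.44 (limma adjusted p = 0.000358), both reversed, while Nr3c1 was at -0.66, Klf9 at -0.82, Tsc22d3 at -1.28 and Fkbp5 at -1.31. Relative to the median of all tested genes the members kept the same order under both scalings. This follows from the method, which divides each library by 1 factor, so it is no test of the result. Distances to that median could shift only through the pseudocount of 1 and the filter on low values. Fkbp5 was 0.92 below that median under either, Tsc22d3 went from -0.83 to -0.89, Nr3c1 from -0.22 to -0.27, Klf9 from -0.60 to -0.43, Ddit4 from 0.01 to -0.06 and Sgk1 from 0.20 to 0.14 (differences in log2). Which scaling is nearer to the level per T cell was not tested.

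The order of levels among the targets changed. In MWA+PBS, Tsc22d3 was highest in all 3 samples, and Ddit4 and Sgk1 came next with ranges that overlapped. In all 3 MWA+2DG samples Sgk1 was highest, then Ddit4, then Tsc22d3, although the Ddit4 range (37.95 to 41.72 FPKM) and the Tsc22d3 range (36.76 to 40.12 FPKM) overlapped. Nr3c1, Fkbp5 and Klf9 followed in that order in all 6 samples, without overlap. The summed level of the 5 targets was 160.4, 152.1 and 149.2 FPKM in MWA+PBS against 130.3, 122.0 and 131.9 FPKM in MWA+2DG, so the sum was lower in every MWA+2DG sample.

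Ratios between genes of the same library do not depend on how libraries are scaled. The ratio of Tsc22d3 to Sgk1 was 1.9, 1.69 and 1.96 in MWA+PBS against 0.906, 0.881 and 0.891 in MWA+2DG, so that the more abundant RNA of the pair switched. The ratio of Fkbp5 to Nr3c1 was 0.446, 0.411 and 0.431 in MWA+PBS against 0.261, 0.246 and 0.222 in MWA+2DG, lower in every MWA+2DG sample. Fkbp5 was also set against Fkbp4, the gene of FKBP52, a cochaperone that competes with FKBP51 for HSP90 and favors receptor activity. That ratio was 0.124, 0.131 and 0.132 in MWA+PBS against 0.122, 0.116 and 0.103 in MWA+2DG, a much smaller distance between groups that did not overlap. For each of the 3 ratios a two-sided exact permutation test gave p = 0.1, and 0.1 after Benjamini-Hochberg adjustment over the 3, which is the smallest p that 3 samples against 3 allow, so none could pass.

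Ligand handling was covered by 4 tested genes of a list of 9, of which 2 rose and none fell. With no filter on low values 8 genes of the list were tested and 3 were called, 2 higher and 1 lower. Hsd11b1, the reductase that regenerates active corticosterone inside cells, was at 6.88, 6.69 and 7.47 FPKM in MWA+PBS but at 15.78, 13.15 and 14.20 FPKM in MWA+2DG. All MWA+2DG samples were well above MWA+PBS for this enzyme (log2 fold change 0.94, limma adjusted p = 0.000103). Abcb1a, an efflux pump that carries glucocorticoids among its substrates, rose from 6.52 ± 0.18 to 11.5 ± 0.78 FPKM (log2 fold change 0.73, limma adjusted p = 0.000144). H6pd, which feeds the reductase with its cofactor, and Abcb1b did not pass, with log2 fold changes of 0.11 and 0.17. After scaling to the CD8 T cell list both reversed and were called lower, at -0.33 and -0.23 (limma adjusted p = 0.0152 and 0.0439), so that the list then held 2 higher and 2 lower. Hsd11b1 and Abcb1a remained higher there, at smaller log2 fold changes of 0.48 and 0.27. Nr3c2, the mineralocorticoid receptor that also binds corticosterone, was at 0.11 ± 0.0529 and 0.113 ± 0.0153 FPKM and was not tested.

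Of the 15 receptor chaperones and cochaperones, all tested, 10 fell, 1 rose and 4 did not pass, with a median log2 fold change of -0.80. The largest falls were in Dnajb1, an HSP40 that loads clients onto HSP70 (59.6 ± 2.07 to 13.4 ± 0.453 FPKM, log2 fold change -2.07), and in Hsp90aa1, the stress-inducible HSP90 (281.3 ± 11.1 to 81.8 ± 1.71 FPKM, log2 fold change -1.77). Hsp90ab1, the constitutive HSP90, fell from 892.1 ± 35.0 to 507.9 ± 15.0 FPKM (log2 fold change -0.81). Fkbp4 fell from 71.7 ± 3.28 to 40.7 ± 1.36 FPKM (log2 fold change -0.80, limma adjusted p = 4.05e-05), close to the log2 fold change of Fkbp5. Ppid, the cyclophilin cochaperone, rose by 0.35 on the log2 scale (limma adjusted p = 0.0202) and reversed to -0.13, not called, after scaling to the CD8 T cell list. Its call was also lost with no filter on low values and without MWA+PBS 1, MWA+PBS 3, MWA+2DG 4 or MWA+2DG 6.

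Of 17 coactivators, corepressors and chromatin partners, all tested, 2 fell (Nrip1 and Ep300), 2 rose (Med14 and Hdac3) and 13 did not pass, with a median of -0.13. Nrip1, a corepressor of nuclear receptors, fell from 10.5 ± 0.423 to 6.46 ± 0.222 FPKM (log2 fold change -0.63, limma adjusted p = 0.000184). The acetyltransferase gene Ep300 had a log2 fold change of -0.29, the mediator subunit gene Med14 0.20 and the deacetylase gene Hdac3 0.26. Med14 and Hdac3 reversed after scaling to the CD8 T cell list, when all 17 were called lower, beside 71.9% of all tested genes called. The calls of Ep300 and Hdac3 were lost without MWA+PBS 1, MWA+PBS 3, MWA+2DG 4 or MWA+2DG 6, and that of Ep300 also with no filter on low values. Med14 lost its call under median ratio scaling and without MWA+PBS 1, MWA+2DG 4 or MWA+2DG 5. The list's count ranged from 1 to 10 calls when single samples were left out, with 10 called without MWA+PBS 2 and 1 without MWA+PBS 1 or without MWA+2DG 4, and 2 without MWA+PBS 3 or MWA+2DG 6.

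Other genes that glucocorticoids are known to induce were taken from a list of 25. In it 20 were tested, 11 fell, 3 rose and 6 did not pass, with a median log2 fold change of -0.33 and a range of -1.89 to 2.04. The genes that fell were Per1, Dusp1, Zbtb16, Nfkbia, Cxcr4, Bcl2l11, Mt1, Glul, Rhob, Irs2 and Cited2. Zbtb16 passed the filter only through MWA+PBS, and its call was lost with no filter, under quantile normalization and without MWA+PBS 1, MWA+PBS 3, MWA+2DG 4 or MWA+2DG 6, while those of Nfkbia and Bcl2l11 were lost without MWA+PBS 1. Dusp1, a phosphatase that switches off MAP kinases, had the largest fall, from 19.4 ± 1.37 to 4.54 ± 0.827 FPKM (limma adjusted p = 2.01e-05). Glul, glutamine synthetase, fell from 59.6 ± 2.45 to 21.7 ± 2.22 FPKM (limma adjusted p = 1.4e-05). Against these, Anxa1, the gene of annexin A1, rose from 9.77 ± 1.33 to 43.2 ± 2.45 FPKM (limma adjusted p = 5.5e-06), and the arrestin family genes Txnip and Arrdc3 had log2 fold changes of 0.38 and 0.27. Txnip and Arrdc3 reversed to -0.13 each, not called, after scaling to the CD8 T cell list, and the call of Arrdc3 was also lost with no filter, under median ratio scaling and without MWA+PBS 1, MWA+PBS 2, MWA+2DG 4 or MWA+2DG 6. Several genes of the list also answer stress or mitogens (Dusp1, Nfkbia and Per1 among them).

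Genes that glucocorticoids are known to repress, mostly cytokines, were mostly low, and 8 of 16 were tested. Of these 3 fell (Il1b, Ccl3 and Icam1), 2 rose (Ccl2 and Ccl5) and 3 did not pass (Tnf, Ifng and Ccl4), with a median of 0.09. The chemokine gene Ccl5 rose from 52.7 ± 3.37 to 84.3 ± 13.1 FPKM (limma adjusted p = 0.00275), a call that was lost after scaling to the CD8 T cell list, and Ccl2 passed the filter only through MWA+2DG (0.41 ± 0.252 and 2.13 ± 0.86 FPKM). Ccl3, another chemokine gene, fell from 12.5 ± 2.26 to 7.17 ± 1.39 FPKM (limma adjusted p = 0.00893).

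The paralogues of the members were compared with them. Of 8 tested in a list of 13, 3 fell (Tsc22d1, Tsc22d2 and Fkbp4), none rose and 5 did not pass. Those calls are 37.5% of the tested paralogues, near the 39.4% of all tested genes. Tsc22d1, the nearest zipper relative by name, went from 3.47 ± 0.181 to 1.57 ± 0.283 FPKM (log2 fold change -0.81, limma adjusted p = 0.00068), whereas Tsc22d4 was at 20.8 ± 2.48 and 20.4 ± 0.658 FPKM and did not pass (limma adjusted p = 0.864). Sgk3, a kinase related to Sgk1, was at 2.17 ± 0.18 and 1.80 ± 0.0651 FPKM (limma adjusted p = 0.134), and Klf13, which resembles Klf9, was at 39.6 ± 5.82 and 42.6 ± 6.92 FPKM (limma adjusted p = 0.59). Of 15 genes that act with or around SGK1 and REDD1, all tested, 4 fell (Ndrg1, Foxo3, Akt1 and Eif4ebp1), 2 rose (Foxo1 and Rictor) and 9 did not pass. These 6 calls are 40.0% of the list, near the 39.4% of all tested genes. After scaling to the CD8 T cell list 14 of the 15 were called, all lower, beside 71.9% of all tested genes called. Rictor was among these 14, at -0.25 (limma adjusted p = 0.0135). The call of Rictor was also lost under median ratio scaling and without MWA+PBS 1, MWA+PBS 3, MWA+2DG 5 or MWA+2DG 6, and that of Ndrg1 with no filter on low values and without MWA+PBS 1, MWA+2DG 4, MWA+2DG 5 or MWA+2DG 6. Foxo1, a transcription factor that SGK1 keeps out of the nucleus and that T cells need for quiescence, rose from 21.1 ± 1.22 to 29.7 ± 1.61 FPKM (log2 fold change 0.47, limma adjusted p = 0.00117), and stood at -0.02, not called, after scaling to the CD8 T cell list.

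**Figure D3:**
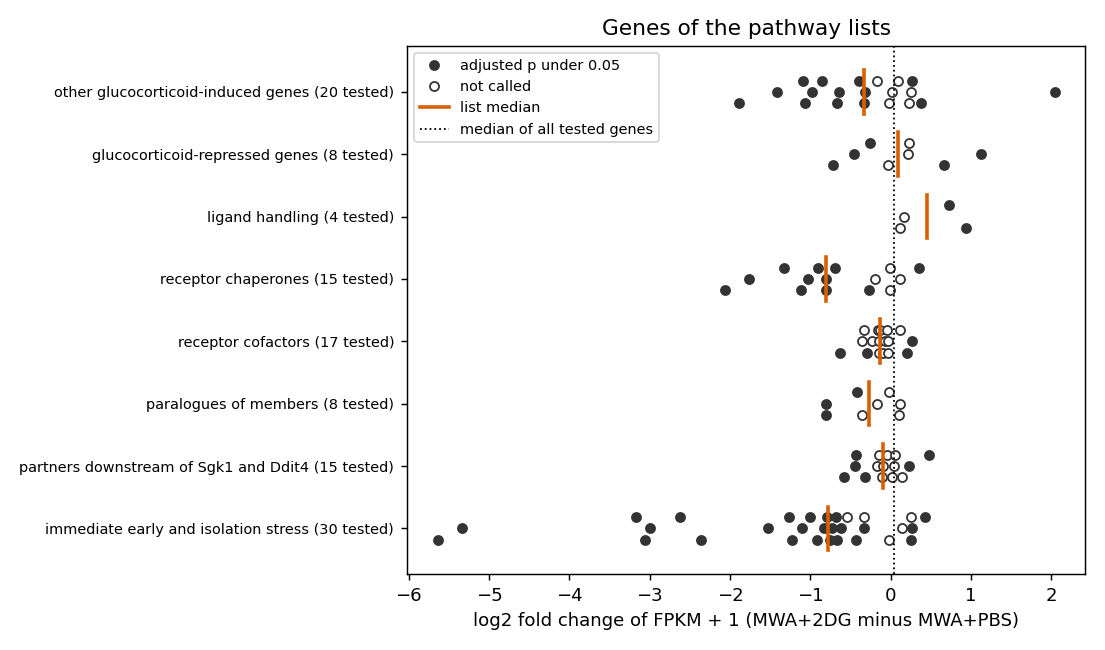
Log2 fold change (MWA+2DG minus MWA+PBS) of each tested gene in the pathway lists and the stress list, with 1 row per list; filled points passed limma at an adjusted p under 0.05, open points did not, the vertical bar is the list's median and the dotted line that of all tested genes. The chaperones lie mostly to the left, with a median of -0.80, and the cofactors gather near 0.

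The RNA differed in cell type markers and stress genes as well, and these values stand beside all results above. In bulk samples fewer cells of a type and less RNA per cell cannot be told apart. CD8 T cell markers were abundant in both groups, with Cd8a at 231.5 ± 6.96 FPKM in MWA+PBS against 366.4 ± 9.47 FPKM in MWA+2DG. Of 15 tested macrophage markers all 15 fell, with a summed level of 728.6 to 785.3 FPKM in MWA+PBS against 111.9 to 120.1 FPKM in MWA+2DG. All 11 erythroid markers fell, from a sum of 322.7 to 379.6 FPKM to one of 86.0 to 102.2 FPKM, with 9 to 11 called when single samples were left out and Tfrc, the transferrin receptor, lost without MWA+PBS 1, MWA+PBS 2, MWA+2DG 4 or MWA+2DG 5. In the other direction, 12 of 13 neutrophil markers rose, from 68.55 to 93.4 FPKM to 1621 to 1802 FPKM in sum, and 9 of 10 tested B cell markers rose, from 15.31 to 16.64 FPKM to 60.78 to 66.04 FPKM, while Bank1 fell. No marker of any list was at 0 in all samples.

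Of 30 tested immediate early and isolation stress genes, 22 fell, 3 rose and 5 did not pass, with a median log2 fold change of -0.78. Their summed level was 1692 to 1791 FPKM in MWA+PBS against 640.6 to 664.0 FPKM in MWA+2DG. The inducible HSP70 gene Hspa1b went from 232.3 ± 12.1 to 3.68 ± 0.245 FPKM, a value that is uncertain because Hspa1a is a near-identical copy that can share its reads. The macrophage, erythroid and stress sums moved in the same direction as Fkbp5, Tsc22d3, Klf9, the chaperones and most induced genes, and the neutrophil, B cell and CD8 T cell sums moved as Sgk1, Hsd11b1 and Anxa1 did. Their part in these results was not tested.

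**Figure D4:**
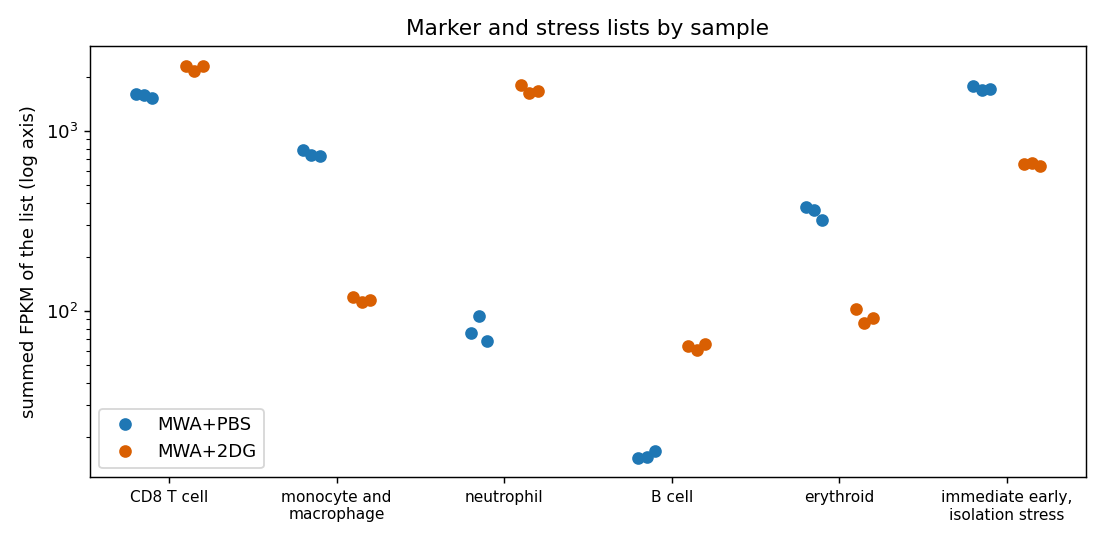
Summed FPKM of 5 marker lists and of the immediate early and isolation stress list in every sample, on a log axis; points are samples, colored by group. The neutrophil sum was 68.55 to 93.4 in MWA+PBS against 1621 to 1802 in MWA+2DG, the widest separation shown, and the macrophage, erythroid and stress sums were lower in all 3 MWA+2DG samples.

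The genes with the most similar profile to each member were named by Pearson's r of log2(FPKM + 1) over the 6 samples, among 7303 genes with a mean FPKM of at least 5. These are descriptions over 6 points that share 2 groups, so that r mainly reads the group difference. Nr3c1 was closest to Pde3b (r = 0.996), Rufy1 and Amd1. Tsc22d3 was closest to Cfp (r = 0.9997), Ddost and Pknox1, and 620 genes had an r of at least 0.95 with it. Fkbp5 was closest to Igkv3-10 (r = 0.9989), Entpd1 and Cd5l, and had 570 such genes. Klf9 was closest to Tpd52 (r = 0.9996), Snap29 and Rbm17, with 492. Sgk1 was closest to Gm10499 (r = 0.9994) and Fam98b, with 514. Ddit4, which did not follow the groups, was closest to Ints4 (r = 0.9683), Sf3b2 and Trav21-dv12, and had 5 genes at that level.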

How the data were processed

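CD8+ T cell RNA from 6 mouse spleen samples was sequenced from poly(A)-selected, strand-marked libraries with molecular identifiers in the adapters. The authors checked reads with fastp, aligned them with HISAT2, and derived the deposited FPKM with StringTie and ballgown. The submitters' processing notes name cutadapt 1.9, HISAT2 2.0.4, UMI-tools, StringTie 1.3.4d and the mm9 build. The annotation, and whether strand or identifiers entered the quantification, were not given in the sources used here. Each file listed 28773 gene IDs, of which 28689 were matched to symbols in GENCODE M21 and 84 were not. FPKM totals were 291803 to 313257 per sample, and 22414 to 23340 genes were above 0. Correlations between samples were 0.984 to 0.989 within groups and 0.934 to 0.943 between groups. No whole reads could be recovered from the low values, so the depth is unknown. In GENCODE M21 only Fkbp5 and Klf9 overlapped other genes, the highest of which averaged 0.19 FPKM.

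Samples were grouped by their titles. The fit used limma 3.58.1 in R 4.3.3 (lmFit, eBayes with a trend) on log2(FPKM + 1) of the 12444 genes whose mean FPKM reached 1, without covariates, two-sided, adjusted over all of them, and was tested on simulated data. Ratios were compared in Python 3.11.15 with scipy 1.17.1. Lists were described by counts and medians. The members and lists were chosen with earlier results of these data known. Named genes were the members, in each list the 2 called genes with the largest rise and the 2 with the largest fall, members of counts of 5 or fewer, the 3 genes most like each member (1 of them is not reported here), and Fkbp4, Hsp90ab1, Hsd11b1, Nr3c2, Klf13, Sgk3 and Tsc22d4. Other names were chosen after their values were seen. Of the lists, Cyp11b1, Klf14 and Klra8 were not analysed here. Fkbp4 was in 2 lists. Alternatives were another pseudocount, other filters, scalings, variance models, fold limits, and each sample left out. No batch is given in the labels.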

Additional observations from a re-analysis of the deposited data

How the results depend on the processing

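Tsc22d3 and Fkbp5 kept their direction and call in all 15 other settings, and Klf9 in the 14 that tested it. Scaling to the CD8 T cell list reversed Sgk1 to -0.25 and Ddit4 to -0.44 (log2), and weighting the samples with limma's arrayWeights reversed Ddit4 to -0.00495. Nr3c1 stayed at -0.17 but was no longer called with no filter on low values or without a trend (limma adjusted p = 0.0562 and 0.0696). Leaving out single samples gave -0.195 to -0.138 for Nr3c1, none of them called, and 0.20 to 0.28 for Sgk1. These fits called 3 to 4 members and 1 to 10 cofactors, beside 29.5% to 41.5% of all tested genes. A mean FPKM of at least 5 left 3 calls among repressed genes, 1 among paralogues, 2 among B cell, 1 among dendritic cell and 6 among erythroid markers, with fewer genes tested, and left no platelet or CD4 T cell marker and no Klf9 to test. Scaling to the CD8 T cell list called 6 members by the study's rule, all lower, beside 68.3% of all tested genes. At an adjusted p under 0.05 it called 17 cofactors, 6 paralogues and 14 partners, all lower. It also called 4 ligand handling genes (2 higher, 2 lower) and 3 CD8 T cell genes (2 higher, 1 lower). These counts stand beside 71.9% of all tested genes called, and only 5.38% of those calls were higher. With arrayWeights 10 cofactors were called, beside 50.7% of all tested genes. A log2 limit of 1 left 0 members. Where no reason is given, the cause was not tested. No paired analysis was possible because no replicate number occurs in both groups (1, 2 and 3 against 4, 5 and 6). The unknown depth and 3 samples per group limit the precision, above all for Klf9.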

Other observations

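Further immune cell markers were measured in the same RNA. Of 4 tested dendritic cell markers 3 fell, with Flt3, a growth factor receptor of their precursors, at 2.82 ± 0.619 FPKM in MWA+PBS against 0.617 ± 0.0493 FPKM in MWA+2DG, so that it passed the filter only through MWA+PBS, and the list's sum was 36.44 to 42.69 and 34.33 to 38.67 FPKM. Of 5 tested natural killer cell markers 2 fell (Ncr1 and Tyrobp) and 2 rose, among them Eomes, a transcription factor that memory CD8 T cells also use, at 22.8 ± 0.337 and 45.7 ± 1.87 FPKM. The other riser, Prf1, reversed to -0.06 (log2), not called, after scaling to the CD8 T cell list. The 3 tested platelet markers fell. Of 4 tested plasma cell markers 2 fell (Jchain and Xbp1), with sums of 79.14 to 87.53 and 39.91 to 42.61 FPKM. Of 6 tested CD4 T cell markers 2 fell (Cd4 and Zbtb7b), with sums of 13.61 to 14.5 and 11.58 to 11.74 FPKM.

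The stress genes that went against their list were Myc, Egr3 and Btg2. Myc, a driver of growth, was at 62.32, 56.05 and 62.57 FPKM in MWA+PBS but at 72.15, 75.21 and 70.58 FPKM in MWA+2DG. These 3 reversed after scaling to the CD8 T cell list. The call of Egr3 was also lost with no filter on low values and without MWA+2DG 4 or MWA+2DG 5, and that of Btg2 without MWA+PBS 1, MWA+PBS 3 or MWA+2DG 5.

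Of 25 other glucocorticoid-induced genes 22 had windows, 27 in all, of which 1 held the single arm TGTTCT (Cxcr4).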
